A study of Mus musculus with 18 samples.

Results

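The constitutive proteasome genes were followed in young germ-free mice colonised with gut microbes from old or from young donors. They were chosen by name: a probe set counted if the platform annotation gave it exactly 1 gene symbol that begins with Psm, a subunit letter from a to g and a number, and the immunoproteasome subunits Psmb8, Psmb9 and Psmb10 were left out. The rule found 46 genes on 49 probe sets, of 22180 genes with 1 symbol on the array. Of these, 44 encode proteasome subunits, assembly chaperones, activators or an inhibitor. The other 2, Psmc3ip, a meiotic recombination factor, and Psme3ip1, a protein that binds the activator Psme3, share only the start of the name. Recipients on the C57BL/6 background were 5 to 6 weeks old at the transfer, were kept for 8 weeks, and are labelled as 12 or 13 weeks old at sampling. OMT recipients received microbiota of donors about 24 months old. YMT recipients received microbiota of young donors, whose age is 4 weeks in one label and 5 to 6 weeks in another. Each tissue, liver and small intestine, gave 5 OMT and 4 YMT arrays, 1 per biological replicate, and the design asks how intestinal and hepatic gene expression differed with donor age. The number of donors and cages was not given in the sources used here, so donor or cage cannot be told apart from donor age.

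The proteasome is the protease that degrades proteins tagged with ubiquitin. Its barrel-shaped core particle is built of alpha subunits (Psma), which form the gated outer rings, and beta subunits (Psmb), of which Psmb5, Psmb6 and Psmb7 carry the active sites. The regulatory particle caps the barrel: the ATPases of its base (Psmc) unfold the substrate and push it in, and the other base and lid subunits (Psmd) bind and remove ubiquitin. Other activators (Psme) can cap the core in place of the regulatory particle. In many cells, including hepatocytes, the transcription factor Nfe2l1 raises proteasome genes together when degradation falls short.

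Promoter sequences of 4 members are shown because these genes stand for the groups that the results turn on: Psmd1 and Psmd12 for the regulatory particle, Psma1 for the alpha ring and Psmb5 for the active sites. Each is the 250 bases before the annotated start site in RefSeq's GRCm38.p6 assembly, 5′ to 3′ on the gene's strand. Capitals mark matches, on either strand, to the antioxidant response element core TGACNNNGC, the heat shock element GAANNTTC or the CCAAT box.
Psmd1 promoter, chr1:86064369-86064618, plus strand: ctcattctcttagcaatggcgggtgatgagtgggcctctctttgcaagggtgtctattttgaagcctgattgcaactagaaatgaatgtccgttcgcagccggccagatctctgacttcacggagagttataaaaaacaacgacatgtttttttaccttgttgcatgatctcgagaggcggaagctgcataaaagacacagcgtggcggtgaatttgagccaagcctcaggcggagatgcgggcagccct
Psmd12 promoter, chr11:107479278-107479527, plus strand: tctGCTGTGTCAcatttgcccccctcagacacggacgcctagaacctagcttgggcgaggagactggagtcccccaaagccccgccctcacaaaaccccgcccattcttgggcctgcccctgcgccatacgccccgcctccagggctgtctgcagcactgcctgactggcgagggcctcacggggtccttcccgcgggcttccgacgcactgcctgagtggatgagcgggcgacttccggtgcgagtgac
Psma1 promoter, chr7:114276117-114276366, minus strand: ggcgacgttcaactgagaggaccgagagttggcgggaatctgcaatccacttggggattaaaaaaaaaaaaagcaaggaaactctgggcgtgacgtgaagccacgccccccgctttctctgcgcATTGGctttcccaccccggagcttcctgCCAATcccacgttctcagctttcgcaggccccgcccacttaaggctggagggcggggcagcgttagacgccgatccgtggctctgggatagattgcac
Psmb5 promoter, chr14:54617996-54618245, minus strand: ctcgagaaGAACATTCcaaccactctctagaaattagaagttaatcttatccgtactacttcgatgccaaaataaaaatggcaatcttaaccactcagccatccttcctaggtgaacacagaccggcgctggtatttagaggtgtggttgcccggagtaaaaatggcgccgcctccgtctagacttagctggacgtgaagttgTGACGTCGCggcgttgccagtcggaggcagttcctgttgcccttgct
The Psmd1 window held no match to the 3 motifs, and neither did the windows of Psmc5 and Psmd5, which are not shown. The Psmd12 window held 1 antioxidant response element core, on the opposite strand and starting 247 bases before the start site. Psma1 held 2 CCAAT boxes, 98 and 126 bases before it. Psmb5 held an antioxidant response element core at 47 bases and a heat shock element at 242 bases. RefSeq promoters were matched for 36 of the 44 proteasome genes, in 39 windows. The antioxidant core was in 5 windows (12.8%), against 10.2% of all 32851 mouse promoter windows of that length. The heat shock element was in 2 (5.13%, against 6.69%), and the CCAAT box in 13 (33.3%, against 33.8%). By particle, the CCAAT box was in 6 of 11 core windows (54.5%) and in 4 of 15 regulatory windows (26.7%). A match is a description of letters only.

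Levels are the authors' deposited log2 values. Differences are OMT minus YMT on the log2 scale with the standard error (SE) after ±, and "rose" or "fell" means an adjusted p under 0.05. Adjusted p-values come from limma with Benjamini-Hochberg adjustment over all genes tested in that tissue. They measure the spread between recipients, and the few arrays per group limit precision. Liver arrays had a mean hepatocyte marker level of 11.98 to 12.33, against 6.23 to 6.51 for intestine arrays. The mean enterocyte marker level was 5.22 to 5.6 in liver and 11.59 to 12.31 in intestine, so each tissue carried its own markers. Among the OMT livers, replicates 1 and 2 stood apart from the other 3 in 2 genes known from earlier results of these data. Scd1, a fatty acid desaturase, lay at 9.21 and 9.40 against 5.63 to 6.61 in the other 3, and the hepatokine gene Fgf21 at 4.88 and 4.53 against 7.28 to 8.31. The YMT livers lay at 12.48 to 12.84 for Scd1 and at 4.64 to 4.98 for Fgf21. Hspa1b, looked at with these 2 genes, did not split the OMT livers this way, at 9.04 and 9.95 against 9.53 to 10.19. Calls that change when both replicates are left out are given beside the results. In the intestine the mean level of 65 small nucleolar RNA probe sets was 8.02 ± 0.51 (SD, n = 5) in OMT and 7.56 ± 0.22 (SD, n = 4) in YMT, highest in OMT replicates 1 and 2 at 8.74 and 8.28. The median probe set lay at 4.12 to 4.22 across liver arrays and at 4.39 to 4.51 across intestine arrays.

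In liver, 41 of the 44 proteasome genes passed the filter on low values, and OMT recipients had more of 5 and less of 1. The 5 that rose were the regulatory particle subunits Psmd7, Psmd1 and Psmc5, the base assembly chaperone Psmd5 and the activator Psme3, by 1.24-fold to 1.47-fold. The activator Psme1 fell. None of 12 core subunits passed limma's adjusted threshold, and none had an unadjusted p under 0.05. Of all 41, 14 were higher and 1 lower at an unadjusted p under 0.05, against 17.4% and 15% of all genes. Over all 13380 genes tested in liver, 10.4% rose and 8.78% fell, and the members' share that rose was near that background. Because these are bulk tissues, fewer cells of a type and less RNA per cell cannot be told apart. Of the 3 members below the filter in liver, Psma5 lay between 3.91 and 4.35, Psmb11, a thymus-restricted subunit, between 3.37 and 4.01, and the chaperone Psmg4 between 4.05 and 4.41.

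**Figure D1:**
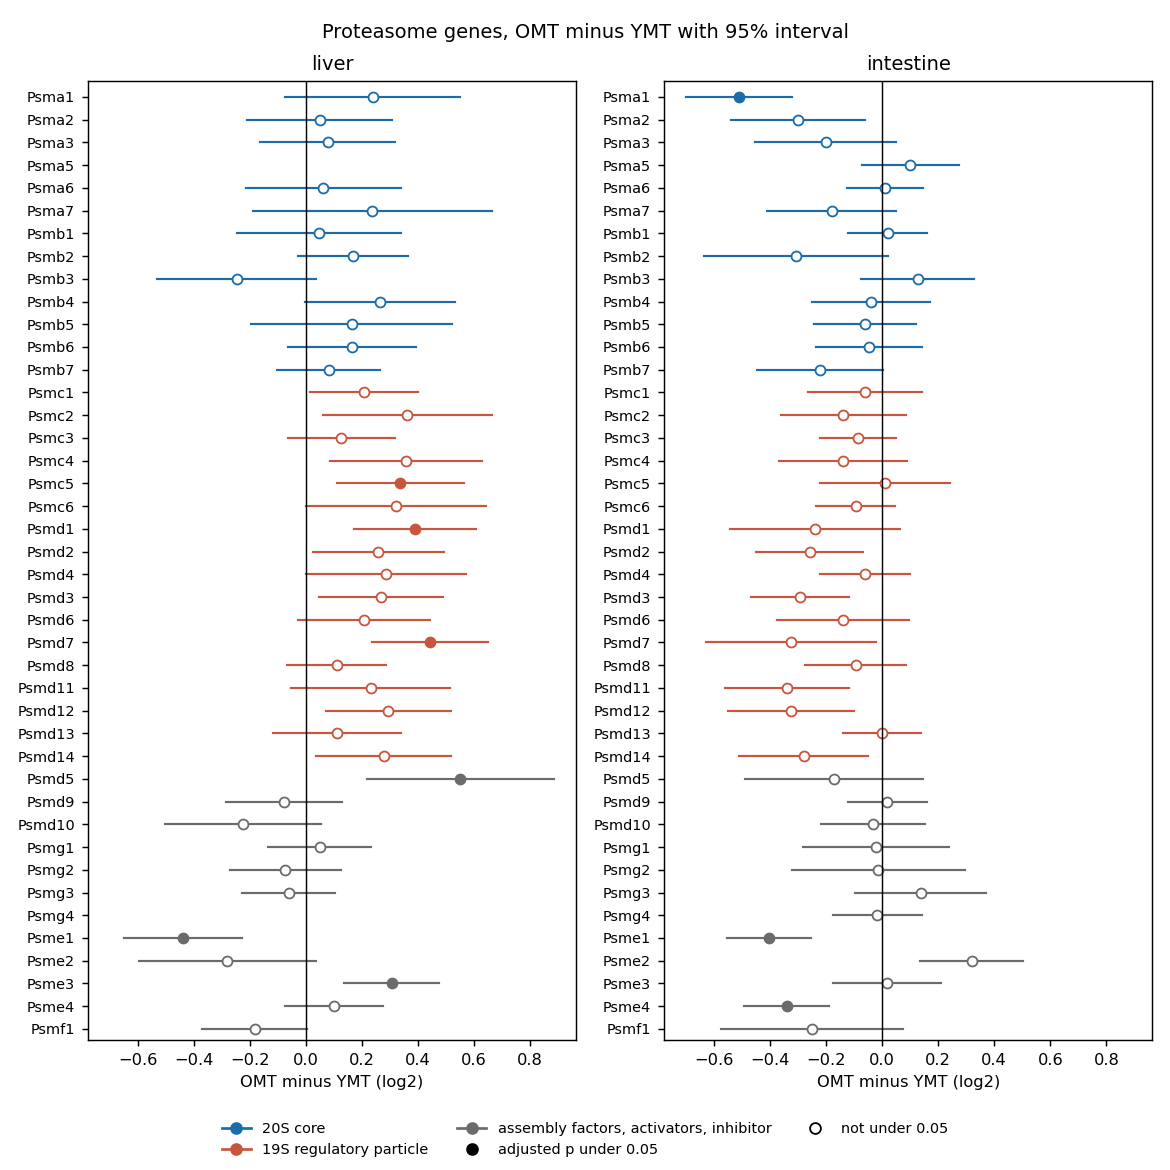
Difference of OMT minus YMT (log2, horizontal axis) for each tested proteasome gene except Psma8, with its 95% confidence interval, in intestine and in liver, ordered by core particle, regulatory particle and accessory genes (filled points: adjusted p under 0.05). In liver all 17 regulatory particle points lie above 0, and 3 of them are filled; in intestine 15 of the 17 lie below 0, and none is filled.

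The base ATPases, which unfold the substrate, all lay higher in OMT livers, with a median difference of 0.33 over 6 genes. Psmc5 (probe set 17257554) was the one that passed the test. It lay at 7.54, 7.54, 7.99, 7.73 and 7.78 in the OMT livers and at 7.29, 7.44, 7.51 and 7.28 in the YMT livers. Every OMT liver was above every YMT liver, with the closest pair at 7.54 and 7.51, and replicate 3 was the highest. The difference was 0.34 ± 0.10, or 1.26-fold (adjusted p = 0.04269), and it missed the threshold without any one of OMT replicates 3, 4 and 5 or YMT replicates 1, 2 and 4, with an adjusted p of up to 0.107. It also missed it with no filter on low values (adjusted p = 0.07086), after quantile normalization within the tissue (0.09882) and with arrays centred on their medians (0.06099). Psmc1, Psmc2, Psmc4 and Psmc6 had unadjusted p-values under 0.05 only, with differences of 0.21, 0.36, 0.36 and 0.32.

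Psmd1 (probe set 17215035), the large scaffold subunit of the base whose promoter is printed above, lay at 8.92, 8.79, 9.28, 9.02 and 9.13 in the OMT livers and at 8.72, 8.64, 8.66 and 8.53 in the YMT livers. The OMT livers did not overlap the YMT livers, although the lowest of them, replicate 2, was close to the highest YMT liver. It rose by 0.39 ± 0.10, or 1.31-fold (adjusted p = 0.0189). Without YMT replicate 4 the adjusted p was 0.0556. A second Psmd1 probe set, which also names Armc9, had means of 4.73 in OMT and 4.75 in YMT livers. It differed by -0.02 ± 0.06 in liver and by 0.10 ± 0.09 in intestine, with signs opposite to those of the probe set used. The ubiquitin receptor Psmd4 differed by 0.29 ± 0.13 (adjusted p = 0.152; 0.03958 without OMT replicate 2 and 0.00673 without OMT replicates 1 and 2). Among 8 lid subunits, which position and carry the deubiquitinase, the median difference was 0.25 and 1 passed the test. This was Psmd7 (probe set 17512755), the partner of the deubiquitinase Psmd14. It lay at 8.9, 8.8, 9.2, 9.04 and 9.12 in the OMT livers and at 8.72, 8.52, 8.55 and 8.49 in the YMT livers. All 5 OMT livers were above all 4 YMT livers, and OMT replicates 1 and 2 were the lowest of the 5. Its rise of 0.44 ± 0.09, or 1.36-fold (adjusted p = 0.008043), held without each array in turn.

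Of the 17 regulatory particle subunits named by the rule, 3 rose in liver and 17 had a difference above 0. An unadjusted p under 0.05 was found for 12, and 3 had groups that did not overlap. Over all genes tested the shares were 10.4% for a rise, 49% for a difference above 0, 17.4% for an unadjusted p under 0.05 in that direction and 9.64% for OMT above YMT without overlap. The median difference was 0.28, with a range of 0.11 to 0.44, and that of all genes was -0.005. The subunits share the same 9 arrays, so their counts are not independent of each other. Sem1, a regulatory particle subunit without a Psm name, was not among the 17. It went the other way in liver, by -0.195 ± 0.08 (limma, unadjusted p = 0.04185, adjusted p = 0.1362). In intestine Sem1 differed by 0.06 ± 0.15 (adjusted p = 0.8268). Adrm1, another such subunit, was not tested.

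Of 12 tested core particle subunits in liver, 11 had a difference above 0, with a median of 0.12, and the exception was Psmb3 at -0.25 ± 0.13 (adjusted p = 0.21). Psmb5, the chymotrypsin-like active site, lay at 7.82, 7.66, 8.48, 8.45 and 8.13 in the OMT livers and at 7.83, 8.02, 7.91 and 8.02 in the YMT livers. OMT replicates 1 and 2 were below all YMT livers, and replicates 3, 4 and 5 were above all of them. The mean difference was 0.16 ± 0.16 with a 95% interval of -0.20 to 0.52 (adjusted p = 0.532). Psmb6, the caspase-like active site, lay at 7.99, 7.86, 8.28, 8.34 and 8.13 in the OMT livers and at 8.0, 8.01, 7.82 and 7.99 in the YMT livers. Here the same OMT livers 3, 4 and 5 exceeded every YMT liver, and the difference was 0.17 ± 0.10 (adjusted p = 0.302). Psmb7, the trypsin-like active site, lay at 9.3, 9.13, 9.45, 9.51 and 9.37 in the OMT livers and at 9.25, 9.34, 9.22 and 9.27 in the YMT livers. Of its OMT livers replicate 2 was below all YMT livers and replicates 3, 4 and 5 above them, with a difference of 0.08 ± 0.08 (adjusted p = 0.54). The beta subunit of smallest p was Psmb4, at 0.27 ± 0.12 (adjusted p = 0.157), and the alpha subunit Psma1, at 0.24 ± 0.14 (adjusted p = 0.278). The 95% intervals of the 12 core subunits together reached from -0.53 to 0.66.

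Without OMT replicates 1 and 2 the core particle of the liver also had members past the threshold. Of 12 core subunits 5 rose: Psma7 by 0.53, Psma1 by 0.44, Psmb4 by 0.44, Psmb5 by 0.41 and Psmb6 by 0.30, with a median over the 12 of 0.25. Of 17 regulatory subunits 12 rose, with a median of 0.39. Over all genes, 8.64% rose and 7.36% fell in this comparison of 3 against 4 arrays. The number of proteasome genes that rose was 19 in place of 5. The 2 arrays left out were chosen with earlier results of these data known. They had the lowest core means and the lowest regulatory means of the OMT livers, so leaving them out raises the differences of both particles by itself. Leaving out single arrays gave 10 without OMT replicate 2, 3 without OMT replicate 5, and 2 without either YMT replicate 2 or YMT replicate 4. The number that fell was 2 in place of 1 without YMT replicate 1 or YMT replicate 2. Shares over all genes are not given for single arrays left out.

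On the scale of each array's mean over subunits, the core particle lay at 8.05, 7.96, 8.44, 8.51 and 8.25 in the OMT livers and at 8.10, 8.20, 8.09 and 8.14 in the YMT livers. OMT replicates 1 and 2 were below all YMT livers and replicates 3, 4 and 5 above all of them. The regulatory particle lay at 8.35, 8.24, 8.71, 8.58 and 8.56 in OMT and at 8.27, 8.28, 8.20 and 8.13 in YMT. Here only OMT replicate 2 lay within the YMT range. Regulatory minus core was 0.24 ± 0.10 (SD, n = 5) in OMT livers and 0.08 ± 0.07 (SD, n = 4) in YMT livers. OMT replicate 4, at 0.07, lay within the YMT range of -0.01 to 0.16. In intestine the core mean was 7.76 ± 0.10 (SD, n = 5) in OMT and 7.89 ± 0.06 (SD, n = 4) in YMT, and the regulatory mean 8.04 ± 0.10 and 8.21 ± 0.05. Regulatory minus core overlapped there, at 0.28 ± 0.05 and 0.33 ± 0.03. These means describe the arrays and were not tested.

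**Figure D2:**
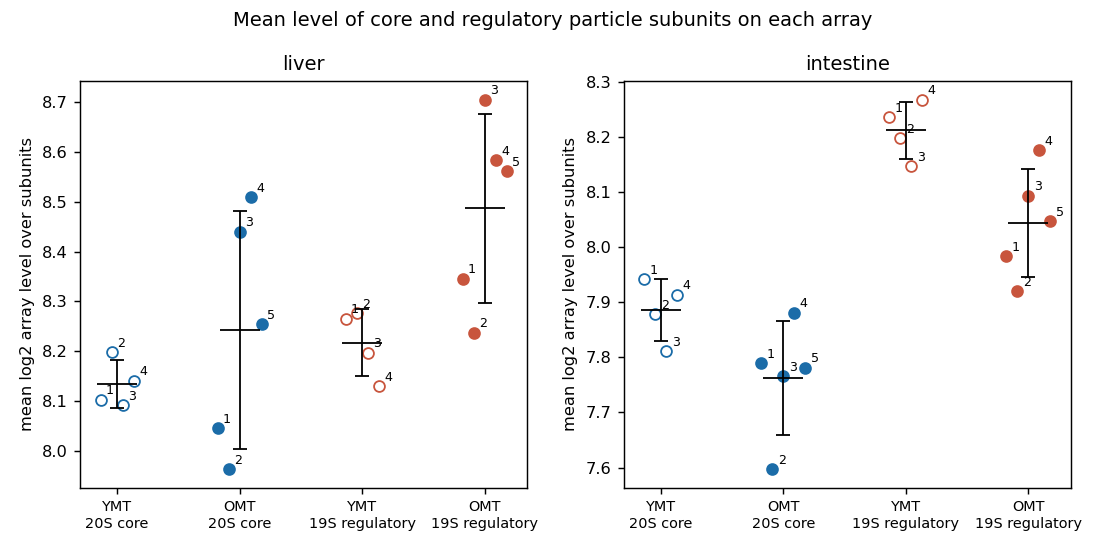
Mean log2 array level (vertical axis) over the tested core and regulatory particle subunits on each array, by tissue and donor group, with replicate numbers beside the points. In liver the OMT core means run from 7.96 to 8.51 and the YMT core means from 8.09 to 8.20, while 4 of 5 OMT regulatory means lie above all YMT ones.

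Among 12 tested accessory genes in liver, 2 rose and 1 fell, against 10.4% and 8.78% of all genes, with a median of -0.07. Psmd5 (probe set 17384322), a chaperone of base assembly, lay at 8.05, 8.1, 8.69, 8.4 and 8.39 in the OMT livers and at 8.08, 7.85, 7.72 and 7.45 in the YMT livers. OMT replicates 1 and 2 were close to YMT replicate 1, so the groups overlapped, and replicates 3, 4 and 5 were the highest. It rose by 0.55 ± 0.15, or 1.47-fold (adjusted p = 0.02755). The call was lost without OMT replicate 5 or YMT replicate 2, 3 or 4, with an adjusted p of up to 0.07812. The activator Psme3 (probe set 17256673), which caps the core mainly in the nucleus, lay at 7.05, 7.13, 7.18, 7.02 and 7.23 in the OMT livers and at 6.78, 6.7, 6.97 and 6.81 in the YMT livers. The groups did not overlap, and it rose by 0.31 ± 0.08, or 1.24-fold (adjusted p = 0.01811; 0.05898 without YMT replicate 2).

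Psme1 (probe set 17300548), a subunit of the interferon-inducible activator, lay at 8.58, 8.71, 8.88, 9.0 and 8.66 in the OMT livers and at 9.09, 9.27, 9.15 and 9.3 in the YMT livers. All OMT livers were below all YMT livers, as for 8.51% of all genes, with replicate 1 the lowest. It fell by 26.1%, a difference of -0.44 ± 0.10 (adjusted p = 0.00953). Its partner Psme2 differed by -0.28 ± 0.14 (adjusted p = 0.203), and the inhibitor Psmf1 by -0.18 ± 0.09 (adjusted p = 0.167; 0.03219 without YMT replicate 2). The core assembly chaperone of smallest p, Psmg2, differed by -0.07 ± 0.09 (adjusted p = 0.614), and the alpha subunit Psma8, known from testis, by 0.19 ± 0.23 (adjusted p = 0.604). Of the genes that share only the name, Psme3ip1 lay at 8.12, 8.15, 8.17, 7.98 and 8.01 in the OMT livers and at 7.78, 7.72, 7.74 and 7.74 in the YMT livers. The OMT livers were all higher, by 0.34 ± 0.07 (adjusted p = 0.004872).

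**Figure D3:**
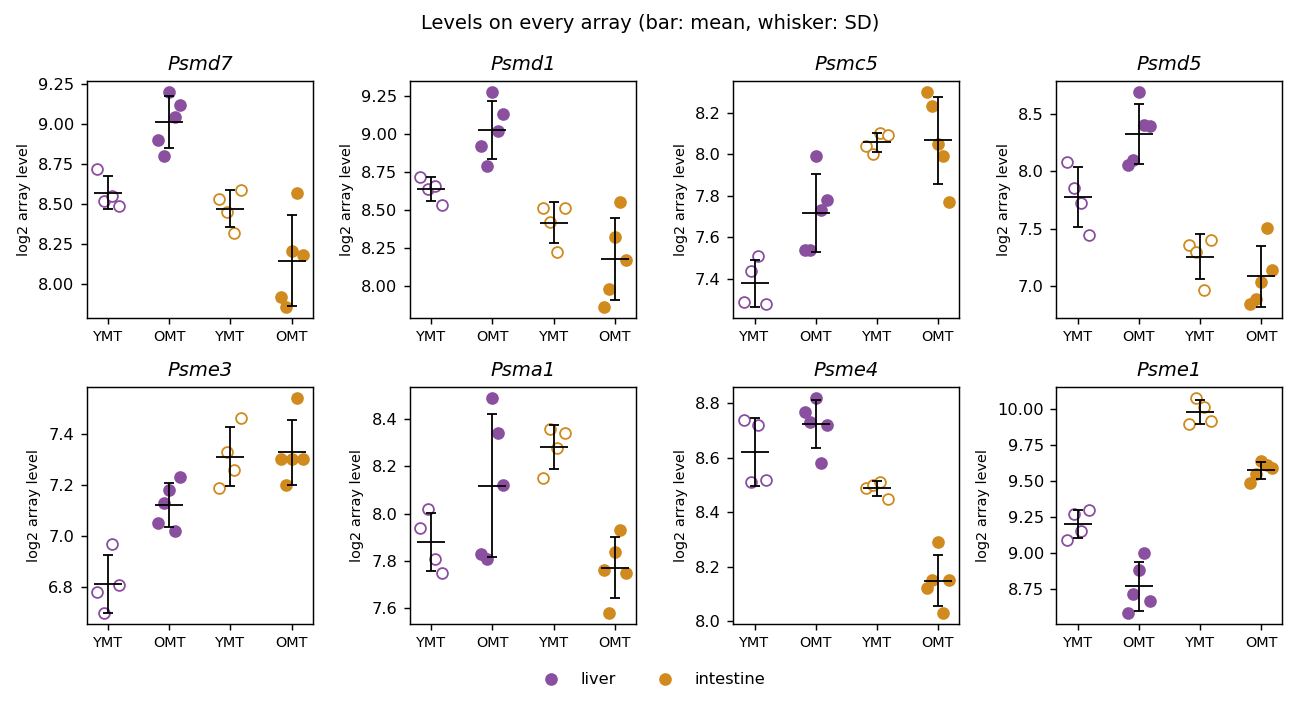
Log2 level (vertical axis) of selected members on each of the 18 arrays, by tissue and donor group; the bar is the mean and the whisker the SD. In liver the OMT points of Psmd7 (8.80 to 9.20) lie above the YMT points (8.49 to 8.72), and in intestine the OMT points of Psma1 (7.58 to 7.93) lie below the YMT points (8.15 to 8.36).

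In the small intestine, 42 proteasome genes were tested; none rose and 3 fell: the alpha subunit Psma1 and the activators Psme1 and Psme4. Over 13238 genes tested, 1.04% rose and 3.1% fell. At an unadjusted p under 0.05, limma gave 1 member higher and 10 lower, against 7.5% and 15.3% of all genes. Psma8 (3.60 to 4.06) and Psmb11 (3.50 to 4.35) lay below the filter.

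Psma1 (probe set 17495297), an alpha ring subunit, lay at 7.76, 7.58, 7.84, 7.93 and 7.75 in the OMT intestines and at 8.15, 8.36, 8.28 and 8.34 in the YMT intestines. Every OMT intestine was below every YMT intestine, and replicate 2 was the lowest. It fell by 29.8%, a difference of -0.51 ± 0.08 (adjusted p = 0.01188; 0.05272 without YMT replicate 2). It was 1 of 13 core subunits past the threshold. The core median was -0.06, but it lay at 0.005 after quantile normalization within the tissue and at 0.02 with arrays centred on their medians. The active sites Psmb5, Psmb6 and Psmb7 differed by -0.06 ± 0.08, -0.05 ± 0.09 and -0.22 ± 0.10, with adjusted p-values of 0.697, 0.773 and 0.228. The differences of Psmb5 and Psmb6 turned to above 0 with either scaling.

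In the regulatory particle of the intestine, 15 of 17 subunits had a difference below 0 and 6 an unadjusted p under 0.05, but none passed the adjusted threshold. Over all genes 54.8% had a difference below 0 and 15.3% were lower at an unadjusted p under 0.05. The median was -0.14, with a range of -0.34 to 0.01, against -0.022 over all genes; it was -0.08 after quantile normalization and -0.06 after centring. The lid subunits had a median of -0.29. Psmd3, the lid subunit of smallest p, lay at 7.2, 7.25, 7.26, 7.35 and 7.39 in the OMT intestines and at 7.71, 7.54, 7.43 and 7.65 in the YMT intestines. The groups did not overlap, as for 3 of the 17 subunits against 6.84% of all genes, and the difference was -0.29 ± 0.08 (adjusted p = 0.06269). It passed with the filter at the 75th percentile, with all 18 arrays in the fit and with array weights, at an adjusted p of 0.04342 to 0.04689. The base subunits of smallest p were Psmd2, at -0.26 ± 0.09 (adjusted p = 0.113), and the ATPase Psmc6, at -0.09 ± 0.06 (adjusted p = 0.407). Psmd4 differed by -0.06 ± 0.07 (adjusted p = 0.649) and turned to above 0 with either scaling.

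Among 12 accessory genes of the intestine, 2 fell, against 3.1% of all genes. Psme1 lay at 9.49, 9.55, 9.64, 9.61 and 9.59 in the OMT intestines and at 9.9, 10.08, 10.02 and 9.92 in the YMT intestines. Every OMT array was below every YMT array, and it fell by 24.4%, a difference of -0.40 ± 0.07 (adjusted p = 0.01249; 0.05421 without YMT replicate 2). Psme4 (probe set 17248135), an activator known from the nucleus, lay at 8.12, 8.15, 8.29, 8.03 and 8.15 in the OMT intestines and at 8.49, 8.5, 8.51 and 8.45 in the YMT intestines. The 4 YMT arrays were close together and above all OMT arrays. It fell by 21.0%, a difference of -0.34 ± 0.07 (adjusted p = 0.02665). Both scalings end this call and leave 2 members that fell, with an adjusted p of 0.06274 after quantile normalization and 0.0975 with centred arrays. The call was also lost without OMT replicate 2 or any one YMT replicate, with an adjusted p of up to 0.08826, and without YMT replicate 2 none of the 3 members passed. Without OMT replicates 1 and 2, Psma1 and Psme1 fell, Psme4 did not pass (adjusted p = 0.09255) and none rose, against 1.18% and 0.589% of all genes.

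Psme2, the partner of Psme1, lay at 6.43, 6.58, 6.36, 6.38 and 6.57 in the OMT intestines and at 5.98, 6.25, 6.16 and 6.19 in the YMT intestines. These OMT arrays were all higher, the reverse of Psme1, by 0.32 ± 0.08 (adjusted p = 0.05702; 0.04771 after quantile normalization and 0.04799 with centred arrays); 2.8% of all genes had OMT above YMT without overlap. A second Psme2 probe set, which also names 2 other genes, differed by -0.26 ± 0.23 in the intestine, so the probe sets disagree in sign. The chaperones of smallest p, Psmd5 and Psmg3, differed by -0.17 ± 0.14 and 0.14 ± 0.10 (adjusted p = 0.499 and 0.459), and the inhibitor Psmf1 by -0.25 ± 0.15 (adjusted p = 0.327). Markers of T and NK cells, which express Psme1 and the immunoproteasome, averaged 6.46 to 7.0 in OMT and 6.91 to 7.46 in YMT intestines. Of these markers 2 of 9 fell, against 3.1% of all genes, with a median difference of -0.43, and none lay below the array median. Their part in the falls of members was not tested. In liver the same markers averaged 3.45 to 3.56 in OMT and 3.49 to 3.78 in YMT, and 5 of 9 lay below the array median.

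The immunoproteasome subunits, which replace the constitutive active sites, fell in both tissues, with Psmb9 the least firm. Psmb8, Psmb9 and Psmb10 differed by -0.92 ± 0.10, -0.81 ± 0.19 and -0.62 ± 0.11 in liver and by -0.89 ± 0.11, -0.77 ± 0.14 and -0.97 ± 0.10 in intestine, and none of the 3 differed between tissues past the threshold. In intestine Psmb9 missed the threshold without OMT replicate 2, YMT replicate 2 or YMT replicate 4, with an adjusted p of up to 0.07123. Without OMT replicates 1 and 2 it missed it in both tissues (adjusted p = 0.06605 in liver and 0.1062 in intestine).

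Part of the regulatory particle differed unequally between donor groups in liver and intestine. This was tested on all 18 arrays as the liver difference minus the intestine difference. Of 40 proteasome genes tested in both tissues, 10 had a signed difference higher in liver and 1 a lower one, against 7.91% and 4.04% of all 11965 genes. Signed means that a fall in intestine counts like a rise in liver. For several of the 10, Psma1 and Psme4 among them, the intestine difference was the greater in size. The regulatory particle held 7 of the 10, of its 17 subunits: Psmd7, Psmd3, Psmd12, Psmd1, Psmd2, Psmd14 and Psmd11. The second Psmd1 probe set, which also names Armc9, did not share this direction. The core particle held 1 of 12, Psma1, and the accessory genes held Psmd5 and Psme4. Values above 0 were found for 17 of 17 regulatory and 11 of 12 core subunits, against 54.8% of all genes, with medians of 0.50 and 0.29 against 0.03. An unadjusted p under 0.05 in that direction was found for 14 of the 17 and 4 of the 12, against 18.1% of all genes. Sem1, which is not among the 17, had a value below 0, at -0.26 ± 0.17 (adjusted p = 0.3495).

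Psmd7 had the smallest p of the subunits, with a liver difference of 0.44, an intestine difference of -0.32 and a gap of 0.77 ± 0.17 (SE; adjusted p = 0.006969). For Psma1 the gap was 0.75 ± 0.17 (adjusted p = 0.008419), and most of it lay in the intestine. Psmd3, with 0.27 in liver and -0.29 in intestine, had a gap of 0.56 ± 0.13 (adjusted p = 0.008727). Psme4 had 0.44 ± 0.10 (adjusted p = 0.009889), and Psme3ip1, which is no subunit, 0.46 ± 0.09 (adjusted p = 0.002263). In the other direction Psme2 had -0.60 ± 0.17 (adjusted p = 0.02937), lost without OMT intestine replicate 2, YMT intestine replicate 1 or YMT liver replicate 2 or 4. The second Psme2 probe set, which also names 2 other genes, did not share this direction. It differed by -0.14 ± 0.14 in liver and by -0.26 ± 0.23 in intestine. Without YMT liver replicate 1, 2 members had a lower signed difference in liver. Psme1, which fell in both tissues, had a gap of -0.03 ± 0.12 (adjusted p = 0.890). Without OMT replicates 1 and 2 of both tissues, 13 of 17 regulatory and 3 of 12 core subunits had a signed difference higher in liver, against 4.68% of all genes. Psme4 and Psme2 no longer passed there (adjusted p = 0.05691 and 0.1406). The count of 10 was 5 without YMT intestine replicate 4 and 6 without YMT liver replicate 4.

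**Figure D4:**
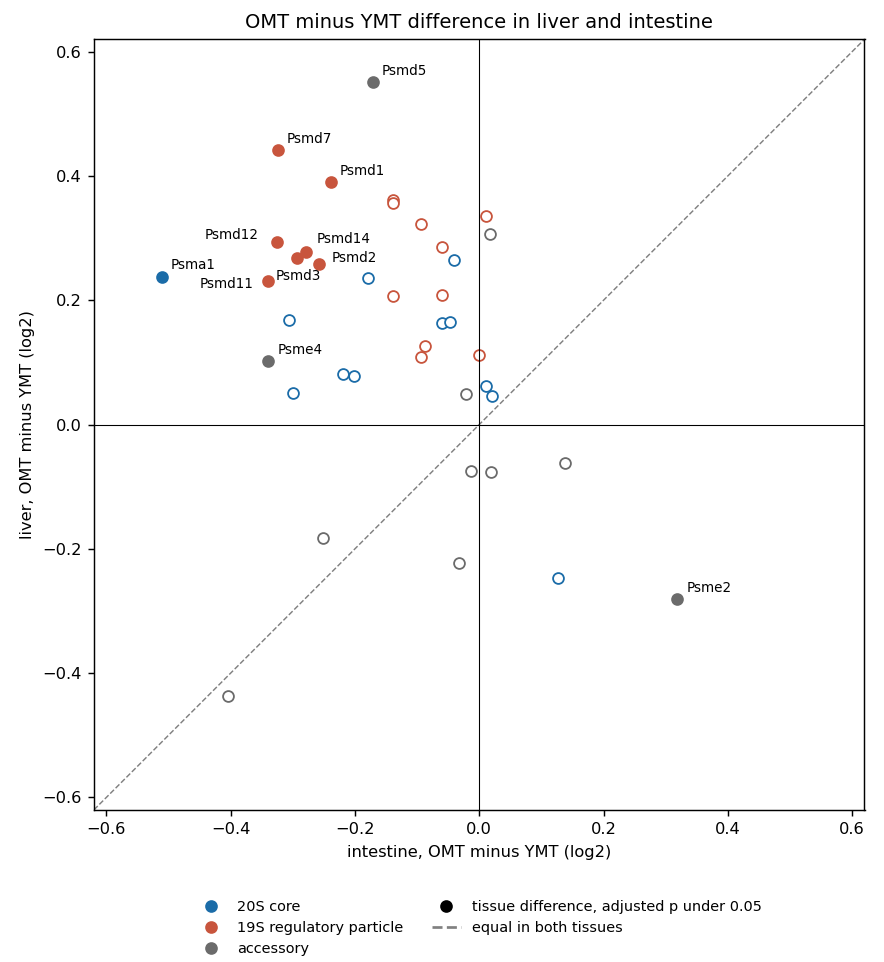
Difference of OMT minus YMT (log2) in intestine (horizontal axis) and in liver (vertical axis) for 40 proteasome genes; filled, labelled points had unequal differences in the tissues (adjusted p under 0.05), and the dashed line marks equal differences. The 7 filled regulatory particle points lie above 0 in liver and below 0 in intestine.

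Genes that act with the proteasome were taken from lists of 36 genes, of which 26 were tested in liver and 27 in intestine. In liver 10 of 26 rose and none fell, against 10.4% and 8.78% of all genes, with a median of 0.26. At an unadjusted p under 0.05, 16 were higher and 2 lower, against 17.4% and 15% of all genes. Without OMT replicates 1 and 2, 13 of the 26 rose, against 8.64% of all genes: Usp14, Faf1, Nsfl1c and Zfand5 passed as well, and Nploc4 did not. In intestine limma called none of 27, with 1 higher and 6 lower at an unadjusted p under 0.05, against 7.5% and 15.3% of all genes. Among factors that bind the proteasome, Zfand2a, a stress-inducible adaptor, lay at 6.8, 6.87, 7.48, 7.41 and 7.21 in the OMT livers and at 5.81, 5.8, 5.96 and 6.02 in the YMT livers. The groups were far apart, with the lowest OMT liver, replicate 1, well above the highest YMT liver. It rose by 1.26 ± 0.14, or 2.39-fold (adjusted p = 0.0002414). The scaffold protein Ecpas rose by 0.33 ± 0.09 (adjusted p = 0.02308; up to 0.06559 without OMT replicate 5 or YMT replicate 2, 3 or 4).

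Of the genes that control proteasome transcription, Nfe2l1 lay at 7.19, 7.37, 7.04, 6.81 and 7.19 in the OMT livers and at 6.6, 6.69, 6.76 and 6.63 in the YMT livers. Every OMT liver was higher than every YMT liver, with the closest pair at 6.81 and 6.76, and here replicate 2 was the highest. It rose by 0.45 ± 0.10, or 1.37-fold (adjusted p = 0.01262), and differed by -0.20 ± 0.08 in intestine (adjusted p = 0.159). With the replicate number as a block in the limma fit, its rise in liver missed the threshold (adjusted p = 0.05345). Ngly1, the deglycosylase that processes the Nfe2l1 protein, rose by 0.39 ± 0.10 in liver (adjusted p = 0.0235; up to 0.07188 without OMT replicate 3 or 5 or YMT replicate 2, 3 or 4).

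Of 4 tested shuttles, which deliver ubiquitinated proteins, 2 rose in liver, against 10.4% of all genes. They were Ubqln4 and Ubqln2, by 0.57 ± 0.11 and 0.52 ± 0.12 (adjusted p = 0.004433 and 0.01094); the ubiquitin-activating enzyme Uba6 rose by 0.49 ± 0.09 (adjusted p = 0.003322). Of 8 genes of the Vcp segregase, which pulls ubiquitinated proteins out of membranes and complexes, 3 rose, against the same 10.4% of all genes. Ubxn4, its anchor in the endoplasmic reticulum, lay at 9.98, 9.95, 10, 9.83 and 9.96 in the OMT livers and at 9.25, 9.13, 9.17 and 9.08 in the YMT livers. The groups did not overlap and each was narrow, and the rise was 0.79 ± 0.07, or 1.72-fold (adjusted p = 3.683e-05). The substrate adaptors Ufd1 and Nploc4 rose by 0.62 ± 0.09 and 0.29 ± 0.09 (adjusted p = 0.0008912 and 0.04487), and Nploc4 missed the threshold, with an adjusted p of up to 0.1208, without any one array but OMT replicate 4 or YMT replicate 1. It also missed it with no filter (0.07429), after quantile normalization (0.07802) and without OMT replicates 1 and 2 (0.1374). In the test between tissues 9 of these 26 genes had a signed difference higher in liver and none a lower one, against 7.91% and 4.04% of all genes. They were Ufd1, Ubxn4, Nfe2l1, Nploc4, Zfand2a, Ubqln2, Ubqln4, Faf2 and Nsfl1c.

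**Figure D5:**
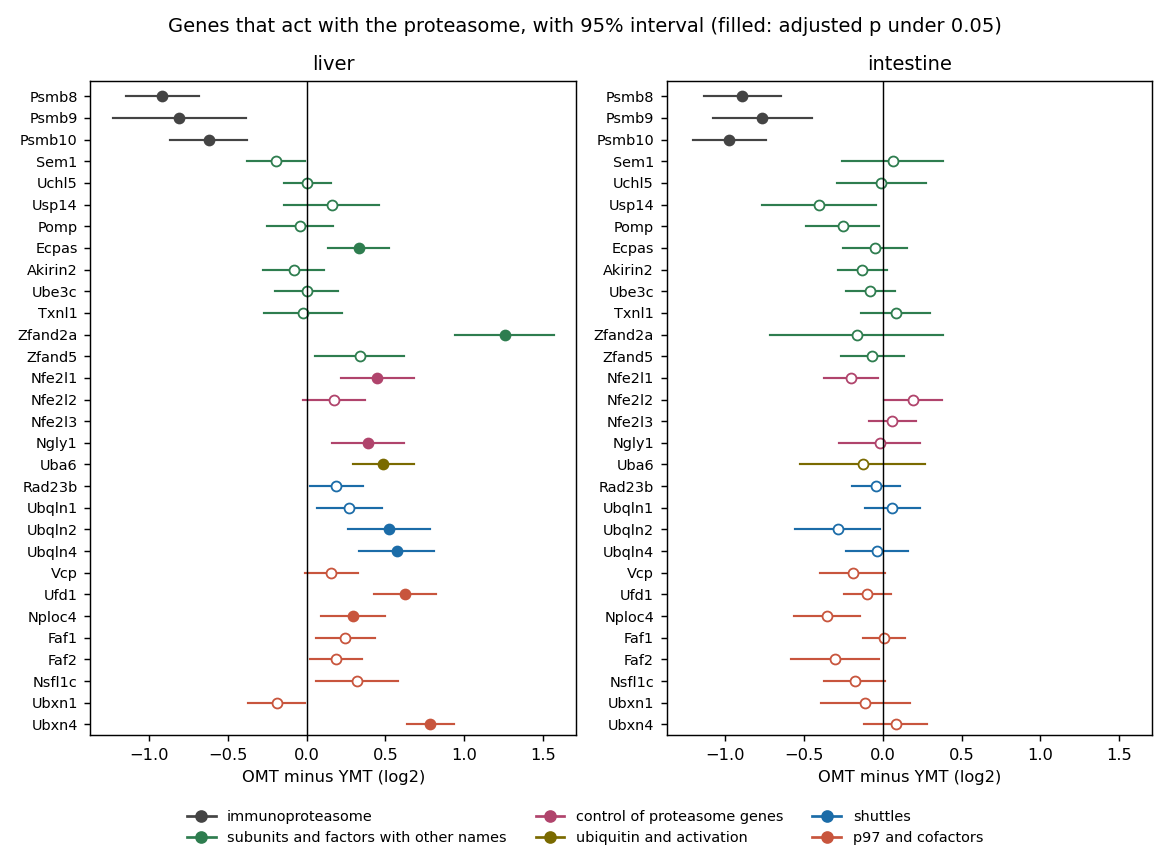
Difference of OMT minus YMT (log2, horizontal axis) with its 95% confidence interval for genes that act with the proteasome, in intestine and in liver (filled points: adjusted p under 0.05). In liver 10 points outside the immunoproteasome are filled, from 0.29 for Nploc4 to 1.26 for Zfand2a; in intestine none of these is filled.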

How the data were processed

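Whole-transcript Affymetrix arrays measured RNA of 9 livers and 9 small intestines, from biotin-labelled cDNA made of 250 ng total RNA, per the labels' protocols. Per the submitters' processing notes, the authors used Affymetrix Expression Console and RMA to make the deposited log2 values; no version was given. RMA subtracts background, equalises the arrays' quantiles and combines probes, so differences of dim probe sets come out narrowed. The range of the values gave 2 as the log base, and whether both tissues were normalized together is not stated, so OMT and YMT levels were compared within a tissue, and levels of both tissues stand side by side only as a check of the tissue markers. Array batches were not analysed here and cannot be told apart from donor group where they coincide.

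Of 41345 probe sets, 23521 have 1 gene symbol, 1814 several and 16010 none in the platform annotation. Tested probe sets had 1 symbol and a level above the array median in 4 or more of the tissue's 9 arrays; where a gene had several, the one of highest mean was used. Levels are not compared between probe sets. The core subunit Psma4 shares its probe sets with another symbol and was not named by the rule. OMT was compared with YMT by limma 3.58.1 (lmFit and eBayes, two-sided, R 4.3.3) in each tissue over all genes, and the tissue difference on all 18 arrays in 4 groups, adjusted by Benjamini-Hochberg and called under 0.05. The fits were tested on simulated arrays. Titles gave each sample's group and name it a biological replicate. The members, the lists and the naming rule were chosen with earlier results of these data known. The rule names every member past the threshold, the member of smallest p of each role with none, and Psmb5, Psmb6, Psmb7, Psme1 and Psme2 whatever their p; of each list it names up to 3 genes past the threshold, and of the tissue difference up to 5 per direction. Alternatives were other filters, eBayes settings, array weights, scalings, probe set means, all 18 arrays, a replicate block, arrays left out and a threshold of 0.10.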

Additional observations from a re-analysis of the deposited data

Results flagged for a closer look

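In 114 groups of 4 or 5 arrays, 6 had an array far from the others by Dixon's criterion, and chance alone gives about 1 in 20 groups. In the intestine, Psmb9 lay at 7.79 in YMT replicate 1, against 8.36 to 8.44 in the other YMT arrays. The ATPase Psmc6 lay at 8.52 in OMT replicate 2, against 8.63 to 8.67, and at 8.80 in YMT replicate 4, against 8.68 to 8.70. In liver, the active site subunit Psmb6 lay at 7.82 in YMT replicate 3, against 7.99 to 8.01, and the Vcp adaptor Ufd1 at 7.65 in OMT replicate 1, against 7.42 to 7.48. Regulatory minus core mean was 0.0735 in OMT liver replicate 4, against 0.27 to 0.31 in the other OMT livers.

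For 12 matched genes the OMT minus YMT differences of liver and intestine were unequal by a test of that inequality. Liver minus intestine was 0.77 for Psmd7, 0.75 for Psma1, 0.72 for Psmd5, 0.63 for Psmd1, 0.62 for Psmd12, 0.57 for Psmd11, 0.56 for Psmd3, 0.56 for Psmd14, 0.52 for Psmd2, 0.44 for Psme4, 0.46 for Psme3ip1 and -0.60 for Psme2. For the 7 Psmd lid and base subunits among them the liver difference was above 0 and the intestine difference below 0. The Psme2 and Psmd1 values are those of the probe sets used, and the second probe sets of these genes did not share their directions.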

How the results depend on the processing

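In intestine, where no proteasome gene rose and 3 fell, 1 rose with the filter at the 75th percentile, after quantile normalization, with centred arrays and at an adjusted p under 0.10. The number that fell was 5 with array weights, 6 at an adjusted p under 0.10 and 0 to 4 with single arrays left out. The core median of -0.06 was -0.18 with the filter at the 75th percentile, and -0.10 to -0.01 with single arrays left out; the regulatory median was -0.20 to -0.09. The intestinal differences of Psmb5, Psmb6 and Psmd4 turned to 0.0054, 0.0088 and 0.0064 after quantile normalization and to 0.018, 0.0305 and 0.017 with centred arrays, and that of Psmb6 to 0.0083 without OMT replicates 1 and 2. In liver, the 5 that rose were 8 with all 18 arrays in the fit, 9 at an adjusted p under 0.10, 19 without OMT replicates 1 and 2, and 2 to 10 with single arrays left out. The number that fell was 1 to 2, the core median 0.06 to 0.18 and the regulatory median 0.22 to 0.33. In liver Psmg2 ranged from -0.1273 to 0.006 with single arrays left out, and turned to 0.006 without YMT replicate 1. For the tissue difference, 5 to 14 members had a larger and 0 to 2 a smaller difference in liver with single arrays left out, and 17 and 0 without OMT replicates 1 and 2 of both tissues, an alternative chosen after seeing the data. With the replicate number as a block, 1 proteasome gene fell in intestine and 0 rose in liver at the adjusted threshold; for the tissue difference, with liver and intestine arrays of one number as a random block (correlation 0.04), 11 and 1 passed. Same-numbered OMT and YMT arrays correlated at -0.05 to 0.30 in intestine and -0.18 to 0.10 in liver. The titles state no pairing by number, and correlations of so few pairs cannot exclude one. The causes of these shifts were not tested. Shares over all genes are given only for the main fits and for those without OMT replicates 1 and 2. Counts under the other settings therefore cannot be set against all genes.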

Other observations

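The alpha subunit Psma4 is covered by a probe set that also names AY074887. In liver it lay at 8.68 ± 0.16 (SD, n = 5) in OMT and at 8.43 ± 0.03 (SD, n = 4) in YMT, a difference of 0.25 ± 0.09 (SE; adjusted p = 0.0954 over all probe sets tested). In intestine the difference was -0.22 ± 0.10 (adjusted p = 0.264). These have the signs of the Psma1 differences in the same tissues, and signals of the 2 named genes cannot be told apart. A second probe set of the ATPase Psmc2 differed by 0.23 ± 0.24 in liver and by -0.07 ± 0.08 in intestine, with the signs of the probe set used.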
